A study of Mus musculus with 8 samples.

Results

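Plasminogen activators are secreted serine proteases that cut plasminogen into plasmin, a protease that dissolves fibrin, releases growth factors from matrix and activates matrix metalloproteinases. The urokinase type works on the cell surface, held there by its receptor, while the tissue type binds fibrin and cell-surface plasminogen-binding proteins such as the complex of annexin A2 and S100A10. Serpins trap these proteases in complexes that cells then take up, so that in bone, where the system takes part in matrix turnover by osteoblasts, activator, receptor and inhibitor together set how much plasmin forms. The 7 genes described here are a list by name, in which 1 serpin (Serpinf1) is not an inhibitor. No measured value enters the rule, but the genes were chosen with earlier results of these data known. They are the activator genes Plat (tissue type) and Plau (urokinase type), the urokinase receptor gene Plaur, the annexin complex genes Anxa2 and S100a10, and the serpin genes Serpine2 and Serpinf1. All 7 were found among the 55335 gene identifiers of the deposited table.

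RNA was sequenced in 8 libraries from MC3T3-E1, a long-used mouse cell line from calvaria (the skull vault) that can mature into osteoblasts, after 3 days of culture with a scaffold. The TABS group (n = 4) grew with the Trio-Active bone scaffold and the HA group (n = 4) with hydroxyapatite doped with Mg2+. The composition of TABS is not stated in the labels. Every library came from cells with a scaffold, so a difference below is TABS relative to HA. Whether a group's libraries are separate cultures is not stated, and each p-value reflects the spread over these libraries alone, possibly a technical one.

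Values are FPKM, the fragments per kilobase of transcript scaled to the library's fragments, so levels of different genes can be set side by side. FPKM totals per library were 304893 to 307263 (TABS) and 312629 to 317439 (HA). Mitochondrial genes took 10.2% to 12.2% of it in TABS and 12.1% to 14.5% in HA, and the part of this share in the differences below was not tested. Read totals were not in the table. Low values of single-exon genes piled up at multiples of a step and, more closely in every library, at multiples of a finer one. If the coarser step is 1 fragment, 18.3 to 25.9 fragments lie behind 1 FPKM in a transcript of 1 kilobase. If the finer step is 1 fragment, there are 2 times as many. Of 6 pre-osteoblast markers 4 (Runx2, Sp7, Col1a1 and Ibsp) reached 1 FPKM in every library. Summed markers of endothelial cells, macrophages and skeletal muscle stayed at or below 0.346, 0.499 and 0.464 FPKM, with Kdr, Myod1 and Myog listed at 0. The summed adipocyte markers were 2.92 to 3.39 FPKM in TABS and 2.64 to 3.38 in HA, and the chondrocyte markers, mostly Sox9, 41.0 to 44.0 and 37.5 to 42.0. Of the chondrocyte markers, Col2a1 was higher in TABS, at 5.49 ± 0.212 against 4.32 ± 0.523 FPKM (limma adjusted p = 0.0393), a call lost without any 1 library except HA 2 (highest adjusted p = 0.102). The summed pre-osteoblast markers were 912 to 969 FPKM in TABS against 1084 to 1413 in HA. Of these 6 markers 4 were called lower, against 2.90% of all tested genes. They were Sp7, Alpl, Ibsp and Col1a1, the last not without HA 2 or any 1 TABS library. Alpl, at 0.373 to 0.518 FPKM in TABS and 1.13 to 1.80 in HA, met the filter for testing (at least 1 FPKM in at least 4 libraries) only through HA. Its call is therefore shaped by that filter. The part of either marker list in the results was not tested. Fewer cells of a state and less RNA per cell cannot be told apart here.

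The 7 genes differed widely in level. From the lowest to the highest, the values over all 8 libraries were 1.05 to 1.64 FPKM for Plau, 3.88 to 5.35 for Plaur, 8.96 to 10.5 for Serpine2, and 12.98 to 18.1 for Plat. Serpinf1 followed at 56.8 to 94.7 FPKM, then Anxa2 at 397 to 474 and S100a10 at 512 to 620.0. No range overlapped that of its neighbour, so this order held in every library. Among 11280 tested genes, S100a10 and Anxa2 stood at the 99.5th and 99.3rd percentile of mean level and Plau at the 6.23rd.

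Of the 7 members, 2 were higher in TABS (Plat and Serpinf1), 0 were lower and 5 did not pass the test (1 lower, Plau, at an unadjusted limma p under 0.05). The test was limma on log2(FPKM + 1), two-sided, with Benjamini-Hochberg adjusted p under 0.05 over all tested genes. Over all tested genes 833, or 7.38%, passed, with 506 (4.49%) higher and 327 (2.90%) lower. After rescaling to TPM these became 915 and 239. Fold changes are TABS minus HA on that log2 scale, which understates changes at low FPKM. The median over the 7 members was -0.03, and 0.0057 over all tested genes. Plat and Serpinf1 were also the 2 members in which every TABS library lay above every HA library, against 10.8% of tested genes (18.0% in either direction).

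**Figure D1:**
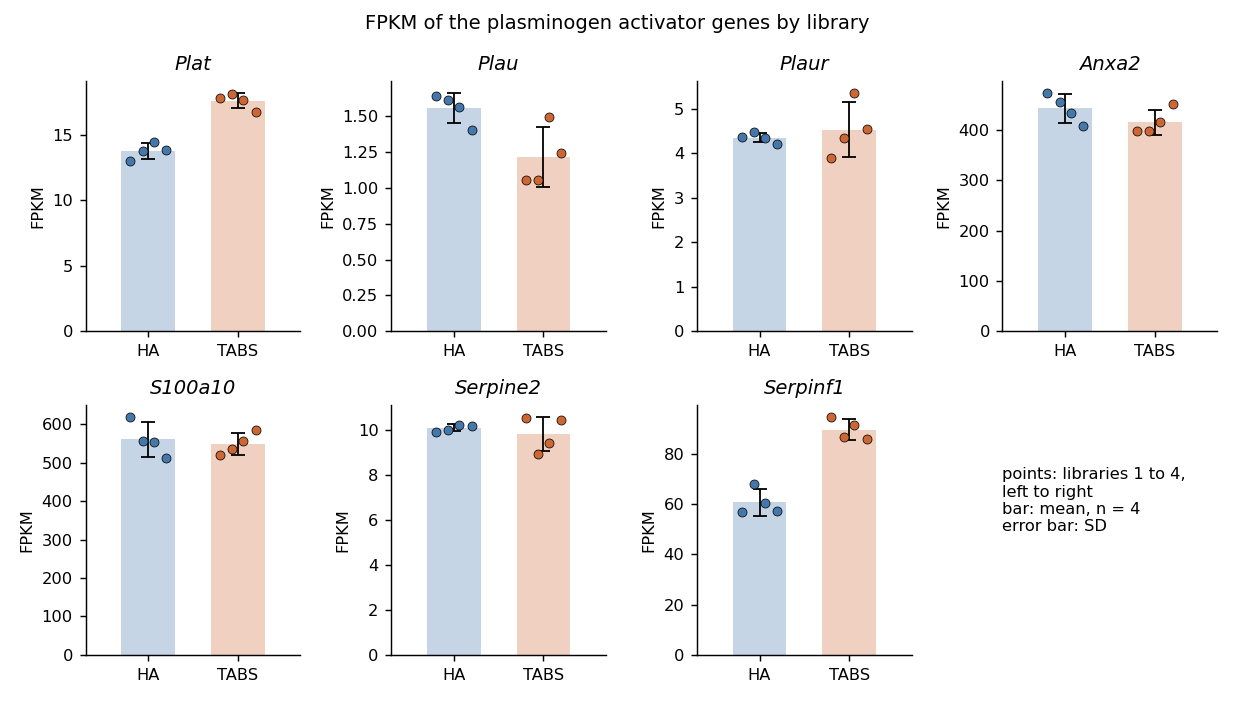
FPKM (vertical axes, each from 0) of the 7 genes in HA and TABS, with 1 point per library from replicate 1 to 4, bars for the mean and error bars for the SD (n = 4). The points of the groups are apart for Plat and Serpinf1 and overlap for the other genes.

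Among the activators, the gene of the tissue type was higher on TABS. Plat, whose protease is the fibrin-dependent activator, measured 17.8, 18.1, 17.7 and 16.7 FPKM in TABS 1 to 4 and 12.98, 13.7, 14.5 and 13.8 in HA 1 to 4. The lowest TABS library was therefore above the highest HA library. Plat rose from 13.8 ± 0.606 to 17.6 ± 0.590 FPKM (SD, n = 4), a log2 fold change of 0.33 ± 0.04 SE (limma adjusted p = 0.00337). Its call held in all 20 alternative analyses, with fold changes from 0.31 to 0.39. In GRCm38 the gene (ENSMUSG00000031538) lies on the plus strand of chromosome 8 from 22757727 to 22782844.

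Plau, the gene of the urokinase type, was the lowest of the members and did not pass the test. It measured 1.05, 1.06, 1.50 and 1.24 FPKM in TABS and 1.64, 1.61, 1.57 and 1.41 in HA. TABS 3 lay above HA 4, so the groups overlapped by that 1 library of each. The log2 fold change was -0.21 with a 95% interval from -0.37 to -0.05 before any adjustment and a limma adjusted p of 0.110. Without TABS 3 it was -0.27 with adjusted p = 0.0521, and with a pseudocount of 0.1 FPKM -0.35 with adjusted p = 0.114. Plau (ENSMUSG00000021822) lies on chromosome 14 from 20836660 to 20843385 on the plus strand.

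Plaur, the gene of the membrane-anchored urokinase receptor, measured 3.88, 4.33, 5.35 and 4.55 FPKM in TABS and 4.37, 4.47, 4.35 and 4.21 in HA. Both the lowest and the highest of the 8 values were TABS libraries, and the HA libraries lay between them. The log2 fold change was 0.04 (95% interval -0.13 to 0.21, limma adjusted p = 0.786), and its sign turned without TABS 3 (-0.028). The gene (ENSMUSG00000046223) lies on chromosome 7 from 24462484 to 24475968 on the plus strand.

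Set against each other within a library, the urokinase gene and its receptor gene parted between the groups although neither passed alone. The ratio of Plau to Plaur FPKM was 0.272, 0.244, 0.280 and 0.273 in TABS 1 to 4 and 0.376, 0.361, 0.360 and 0.334 in HA 1 to 4. All 4 TABS ratios were below all 4 HA ratios. The ratio of Plat to Plau, looked at after the values were seen, was 11.8 to 17.1 in TABS and 7.91 to 9.83 in HA. These ratios are a description and carry no test. Of single tested genes 18.0% were apart in either direction, and the share over ratios of other gene pairs was not computed.

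The annexin complex genes were the most abundant members and did not pass the test. Anxa2 encodes a calcium-dependent membrane-binding protein, and S100a10 its small partner, whose C-terminal lysine is known to bind plasminogen and the tissue-type activator. Anxa2 measured 397, 399, 415 and 451 FPKM in TABS and 474, 455, 434 and 408 in HA. S100a10 measured 520.5, 535, 557 and 586 FPKM in TABS and 620.0, 557, 554 and 512 in HA. For both genes the groups overlapped, and HA 1 was the highest of the 8 libraries. The log2 fold changes were -0.09 for Anxa2 (95% interval -0.23 to 0.05, limma adjusted p = 0.409) and -0.03 for S100a10 (-0.18 to 0.12, adjusted p = 0.855). The sign for S100a10 turned after rescaling to TPM (0.015), with quantile normalization (0.019), after a correction for GC content and length (0.0019) and without HA 1 (0.023).

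High and low values of these genes came in the same libraries. Over the 8 libraries, log2(FPKM + 1) of Anxa2 and S100a10 gave Pearson r = 0.87 (exact permutation p = 0.00466, two-sided) and Spearman rho = 0.81 (exact permutation p = 0.0218). Without HA 1 and HA 4, which lay farthest from the median of S100a10, r was 0.82 over 6 libraries. This was the 1 relation computed, and since the pair was chosen after the values were seen, the p-values describe it and do not test it. Both genes share the library and its scaling. The ratio of Anxa2 to S100a10 stayed between 0.745 and 0.768 in TABS and between 0.764 and 0.818 in HA. HA 1 and TABS 4 were also the highest of their groups for S100a11 (913 and 754 FPKM), Eno1 (151 and 141) and Rpsa (593 and 544). Other genes differed. S100a6 was highest of its group in HA 1 (452 FPKM) but lowest in TABS 4 (351). Anxa5 was highest in HA 3 and TABS 3 (695 and 803), and Plat was lowest of its groups in HA 1 and TABS 4 (12.98 and 16.7). Anxa2 (ENSMUSG00000032231) lies on chromosome 9 from 69453620 to 69491795 and S100a10 (ENSMUSG00000041959) on chromosome 3 from 93555080 to 93564643. Exons of Anxa2 overlap those of the antisense gene Gm16144 by 98 of 3731 bases, and counting by strand is not stated.

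**Figure D2:**
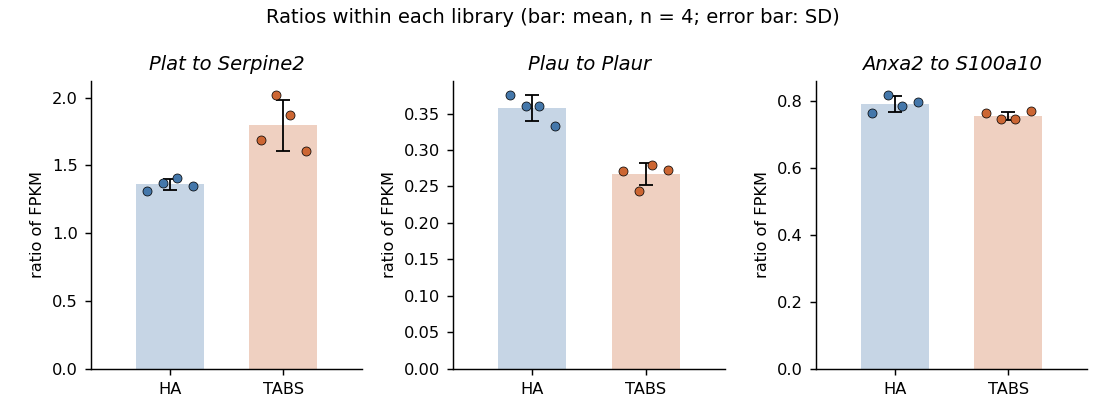
Ratio of FPKM within each library (vertical axes from 0) for Plat to Serpine2, Plau to Plaur and Anxa2 to S100a10, with 1 point per library, bars for the mean and error bars for the SD (n = 4). The groups are apart in the first and second panel, with 1.60 to 2.02 in TABS against 1.31 to 1.41 in HA for Plat to Serpine2, and overlap in the third.

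Of the serpin members, Serpinf1 was higher on TABS and Serpine2 did not pass. Serpinf1, which encodes pigment epithelium-derived factor (PEDF), a secreted serpin that does not inhibit proteases, binds collagen and is needed for normal bone mineral in humans and mice, measured 94.7, 86.6, 91.5 and 85.6 FPKM in TABS. In HA it measured 56.8, 67.9, 60.5 and 57.1. The lowest TABS library (85.6) was above the highest HA library (67.9). Serpinf1 rose from 60.6 ± 5.18 to 89.6 ± 4.26 FPKM (SD, n = 4), a log2 fold change of 0.56 ± 0.06 SE (limma adjusted p = 0.00153). Its change was at the 99.5th percentile of signed fold changes, and its call held in all 20 alternatives (0.53 to 0.61). The gene (ENSMUSG00000000753) lies on the minus strand of chromosome 11 from 75409769 to 75422701.

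Serpine2, which encodes protease nexin-1, an inhibitor of thrombin, urokinase and the tissue-type activator, measured 10.5, 8.96, 9.44 and 10.4 FPKM in TABS and 9.92, 10.04, 10.3 and 10.2 in HA. The HA libraries lay inside the range of the TABS libraries. The log2 fold change was -0.04 (95% interval -0.16 to 0.08, limma adjusted p = 0.726), and its sign turned without TABS 2 (0.0024). Serpine2 (ENSMUSG00000026249) lies on the minus strand of chromosome 1 from 79794197 to 79861180. The ratio of Plat to Serpine2 was 1.69, 2.02, 1.87 and 1.60 in TABS 1 to 4 and 1.31, 1.37, 1.41 and 1.35 in HA 1 to 4. All 4 TABS ratios were above all 4 HA ratios, as were the values of Plat by itself, and this ratio too carries no test.

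The promoters of these serpin genes are shown, of 4 members found in the RefSeq table, because the first of them passed the test and the second did not. Each is a stretch before the RefSeq start in GRCm38.p6 outside the gene's annotated exons, read 5′ to 3′ on the gene's strand. Capitals mark matches on either strand to 1 of 5 motifs: the GC box GGGCGG, the CCAAT box CCAAT, the RUNX site TGTGGT, the AP-1 site TGANTCA and the TATA box TATAAA. The first is chr11:75422702-75422873 (172 bases, from 250 to 79 before the start), just outside the gene. The second is chr1:79858697-79858915 (219 bases, from 250 to 32 before the start), within the span of a longer annotated transcript, between its exons. Both are on the minus strand.
Serpinf1: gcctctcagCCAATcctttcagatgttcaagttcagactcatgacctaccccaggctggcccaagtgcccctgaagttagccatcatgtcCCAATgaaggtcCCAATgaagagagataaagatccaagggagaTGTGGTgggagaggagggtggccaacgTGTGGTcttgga
Serpine2: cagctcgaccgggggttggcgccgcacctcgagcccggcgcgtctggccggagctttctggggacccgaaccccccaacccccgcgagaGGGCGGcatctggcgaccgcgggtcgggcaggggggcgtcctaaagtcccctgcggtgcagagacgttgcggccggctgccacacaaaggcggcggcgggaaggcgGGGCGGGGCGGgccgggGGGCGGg
The Serpinf1 stretch held 3 CCAAT boxes and 2 RUNX sites, motifs found in 23.6% and 9.9% of 32851 RefSeq promoters over the same window. It held 0 GC boxes (19.8% of promoters). The Serpine2 stretch, with 77.6% G and C against 52.9% in Serpinf1, held 4 GC boxes (28.4% of promoters) and 0 CCAAT boxes or RUNX sites. Neither stretch held the AP-1 site or the TATA box. Since they end 79 (Serpinf1) and 32 (Serpine2) bases before the start, a match nearer to it could not be found. Whether either promoter has a TATA box there is therefore not shown. The stretches taken in the same way from Anxa2 (187 bases) and Plaur (250 bases) held 1 AP-1 site each (5.13% and 6.75% of promoters over those windows). GC boxes were present there too, 1 in Anxa2 and 3 in Plaur (22.2% and 32.7% of promoters). A match is a description of letters and not a site shown to be used.

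Other genes of the system were taken from 8 lists by role, with 52 of 70 genes tested. Of these 52, 7 rose and 4 fell, against 4.49% and 2.90% of all tested genes. The other 41 did not pass, and the median log2 fold change was 0.03. Leaving out TABS 3, TABS 4, HA 2, HA 3 or HA 4 turned the 4 that fell into 2. Plg, the gene of plasminogen itself, the substrate of both activators, was listed at 0 in every library. Of 4 tested genes of the list of other plasminogen-binding and related surface proteins, 1 rose. This was Thbd, the gene of thrombomodulin, a thrombin receptor, from 21.4 ± 1.28 to 25.9 ± 0.889 FPKM (log2 fold change 0.27, limma adjusted p = 0.0153), a call lost without TABS 3 (adjusted p = 0.0521). The plasminogen receptor gene Plgrkt (0.05), Eno1 (0.03) and Ahnak, whose giant protein binds the annexin complex (-0.05), did not pass.

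The 8 other inhibitors of plasmin and its activators on the list all stayed at or below 0.159 FPKM and were not tested. Serpinf2, the gene of the plasmin inhibitor alpha-2-antiplasmin and the neighbour of Serpinf1 on chromosome 11 (75431732 to 75439591), was listed at 0 in every HA library and reached 0.0236 FPKM in TABS.

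**Figure D3:**
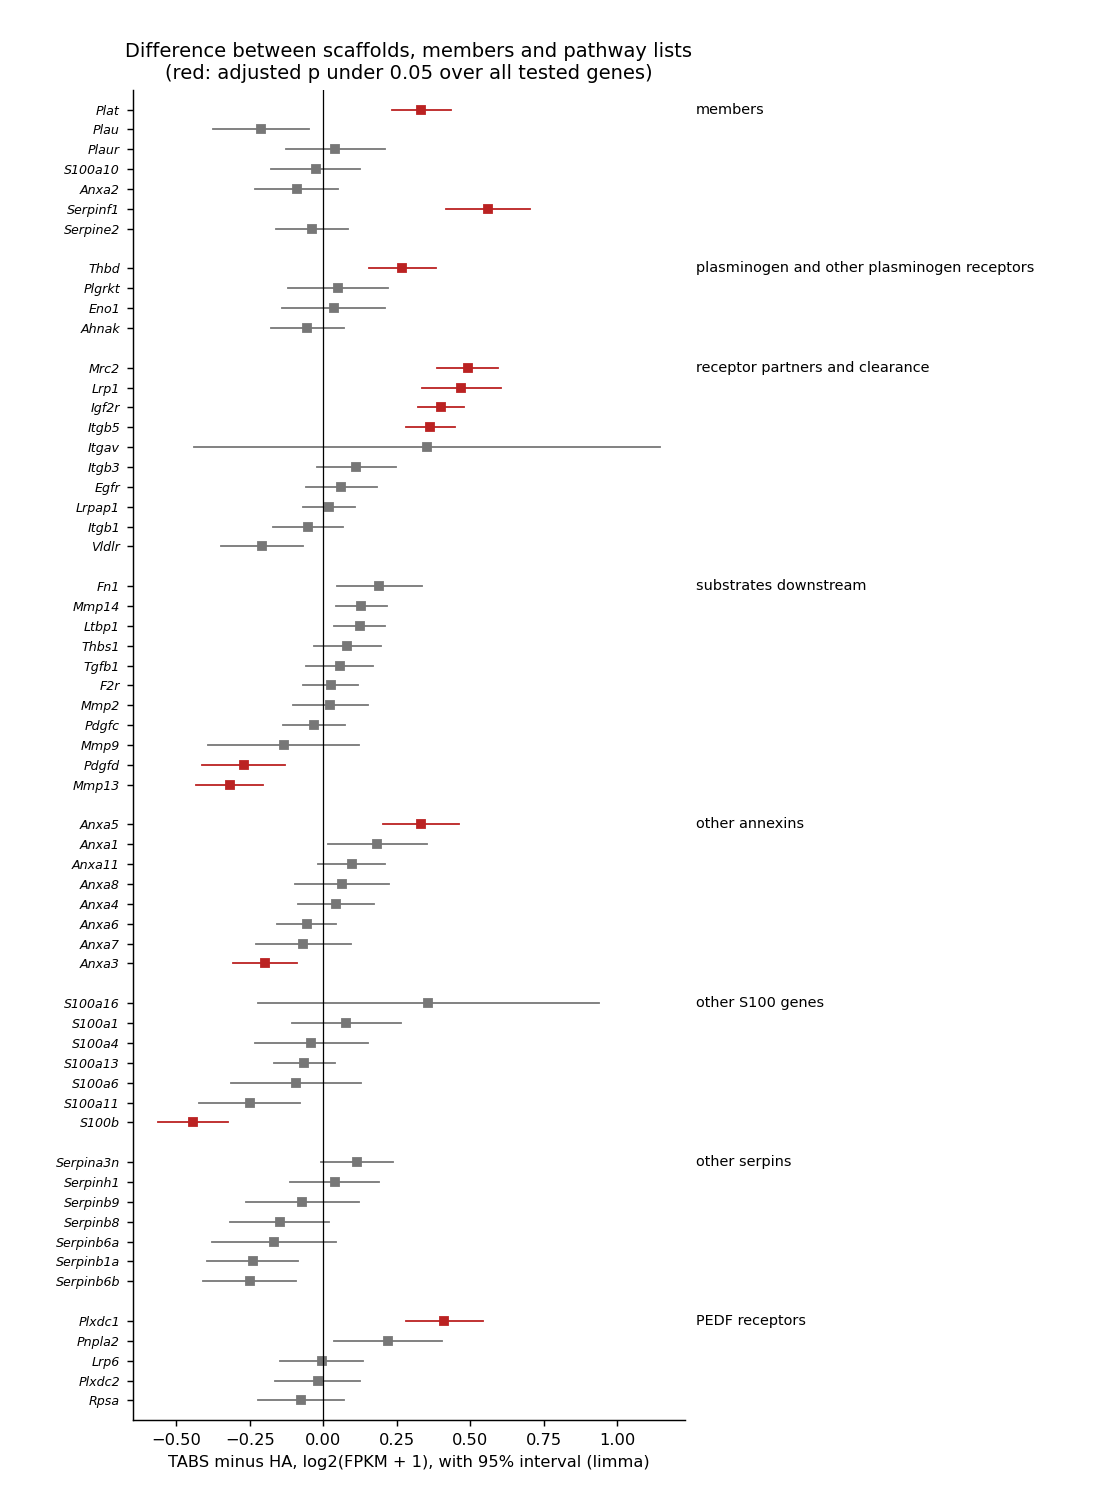
Difference TABS minus HA in log2(FPKM + 1) (horizontal axis) with its 95% interval for the 7 members and the 52 tested genes of the 8 lists, in red where the adjusted p is under 0.05. Plat, Serpinf1, Thbd, Mrc2, Lrp1, Igf2r, Itgb5, Anxa5 and Plxdc1 lie to the right in red, and Pdgfd, Mmp13, Anxa3 and S100b to the left.

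The list of receptor partners and clearance receptors held the most calls, with 4 of 10 tested genes higher, 0 lower and a median log2 fold change of 0.23. Over all tested genes 4.49% were higher and 2.90% lower. In the same list Vldlr had every TABS library below every HA library, with an unadjusted limma p of 0.00792. Lrp1 encodes the endocytic receptor that takes up complexes of the activators with their serpins, Serpine2 complexes included. It measured 156, 149, 159 and 147 FPKM in TABS and 118, 116, 99.4 and 108 in HA, and rose by a log2 fold change of 0.47 ± 0.06 SE (limma adjusted p = 0.00257). Mrc2, which encodes a collagen uptake receptor that associates with the urokinase receptor, measured 97.0, 95.1, 95.7 and 90.8 FPKM in TABS and 69.8, 70.3, 63.8 and 64.6 in HA (0.49 ± 0.05 SE, adjusted p = 0.000718). Igf2r, whose product binds plasminogen and the urokinase receptor besides IGF2, rose from 25.9 ± 0.399 to 34.6 ± 0.651 FPKM (0.40, adjusted p = 0.000590). Itgb5, the integrin subunit that pairs with alpha v to bind vitronectin, rose from 143 ± 2.12 to 184 ± 3.77 FPKM (0.36, adjusted p = 0.000893).

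In each of these 4 receptor genes every TABS library lay above every HA library, as in 10.8% of all tested genes. Each of the 4 calls held in all 20 alternatives. Igf2r in TABS 4 (33.6 FPKM) and Itgb5 in TABS 1 (189.6) stood apart from their groups. Fold changes over all tested genes went with the GC content of the transcript (Spearman 0.35 across 11277 genes, which are not independent replicates). The transcripts of Lrp1, Mrc2, Igf2r and Itgb5 had 57.9%, 58.7%, 51.2% and 57.0% G and C, against 45.8% in Plat and 54.4% in Serpinf1. After the GC and length correction the fold changes were 0.38, 0.41, 0.33 and 0.31 for the receptors, 0.34 for Plat and 0.53 for Serpinf1, and all passed. The partner genes Itgb1 (-0.05), Itgb3 (0.11), Egfr (0.06), Vldlr (-0.21) and Lrpap1 (0.02) did not pass, nor did Itgav.

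Of 11 tested genes whose proteins are cut or released by plasmin or the activators, 0 rose and 2 fell, against 4.49% and 2.90% of all tested genes. At an unadjusted limma p under 0.05, 3 rose and 2 fell. Scaling bore on the count of adjusted calls, with 2 genes higher after rescaling to TPM (Mmp14 and Ltbp1, adjusted p = 0.0312 and 0.0351) and 2 with quantile normalization (Mmp14 and Fn1, 0.0451 and 0.0226). Mmp13, a collagenase gene, fell from 168 ± 10.5 to 135 ± 3.02 FPKM (log2 fold change -0.32, limma adjusted p = 0.00673). Pdgfd, a growth factor gene whose product urokinase can activate, fell from 10.01 ± 0.552 to 8.13 ± 0.682 FPKM (-0.27, adjusted p = 0.0340). Leaving out any 1 of TABS 3, TABS 4, HA 2, HA 3 and HA 4 ended the call on Pdgfd (highest adjusted p = 0.0932), as did correcting for GC content and length (fold change -0.16, adjusted p = 0.0561) and testing with no filter on low FPKM (0.0816). Mmp14 (0.13), Mmp2 (0.02), Fn1 (0.19), Tgfb1 (0.05) and the thrombin receptor gene F2r (0.02) did not pass.

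Of 22 tested relatives of the members by sequence family, 3 passed (13.6%, against 7.38% of all tested genes). Of 8 annexin genes besides Anxa2, 1 rose and 1 fell, and Anxa1 was also higher after the correction for GC content and length (0.25, adjusted p = 0.0286). Anxa5, the phosphatidylserine-binding annexin, rose from 628 ± 44.6 to 789 ± 15.96 FPKM (log2 fold change 0.33, limma adjusted p = 0.0107), with HA 3 at 695 apart from 604 to 608 in the other HA libraries. Anxa3 fell from 7.72 ± 0.415 to 6.59 ± 0.257 FPKM (-0.20, adjusted p = 0.0420), a call lost without any 1 library except HA 1 (highest adjusted p = 0.108). With all libraries kept, the Anxa3 call was also lost after rescaling to TPM (0.0703) and, separately, with no filter (0.0747). Anxa3 shares 112 of 3643 exon bases with Gm42603 on the same strand. Of 7 S100 genes besides S100a10, 0 rose and 1 fell, S100b, from 33.7 ± 2.12 to 24.5 ± 1.06 FPKM (-0.44, adjusted p = 0.00194). S100a11, next to S100a10 on chromosome 3, was at -0.25 with adjusted p = 0.0799. Of 7 tested serpin genes outside the plasmin system, 0 passed (limma; 2 at an unadjusted p under 0.05, both lower). These were Serpinb6b (-0.25, adjusted p = 0.0622) and Serpinb1a (-0.24, adjusted p = 0.0668, or 0.0344 without TABS 2).

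Of 5 genes of proposed PEDF receptors, 1 rose and 0 fell, against 4.49% and 2.90% of all tested genes. Plxdc1, a transmembrane receptor gene, rose from 9.78 ± 0.676 to 13.3 ± 0.753 FPKM (log2 fold change 0.41 ± 0.06 SE, limma adjusted p = 0.00413), in the same direction as Serpinf1. Pnpla2, the gene of a triglyceride lipase, was at 0.22 (adjusted p = 0.137), and Plxdc2, Lrp6 and Rpsa lay between -0.08 and -0.01.

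Profiles over the 8 libraries were compared with 9910 other tested protein-coding genes after each was standardised. Nearest to Plat were Usp11, a deubiquitinase gene, and Ptgfrn, a membrane protein gene, at root mean square distances of 0.101 and 0.114 SD. Ptgfrn rose from 14.1 ± 0.881 to 20.4 ± 0.827 FPKM. Nearest to Serpinf1 were Timp2, a metalloproteinase inhibitor gene, and Ptgs1, the gene of cyclooxygenase 1, at 0.115 and 0.129 SD. Timp2 rose from 1259 ± 45.3 to 1602 ± 42.8 FPKM, and its call was lost with no filter on low FPKM (adjusted p = 0.0618). All 4 neighbours passed the test themselves, so the likeness includes the difference between the groups.

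**Figure D4:**
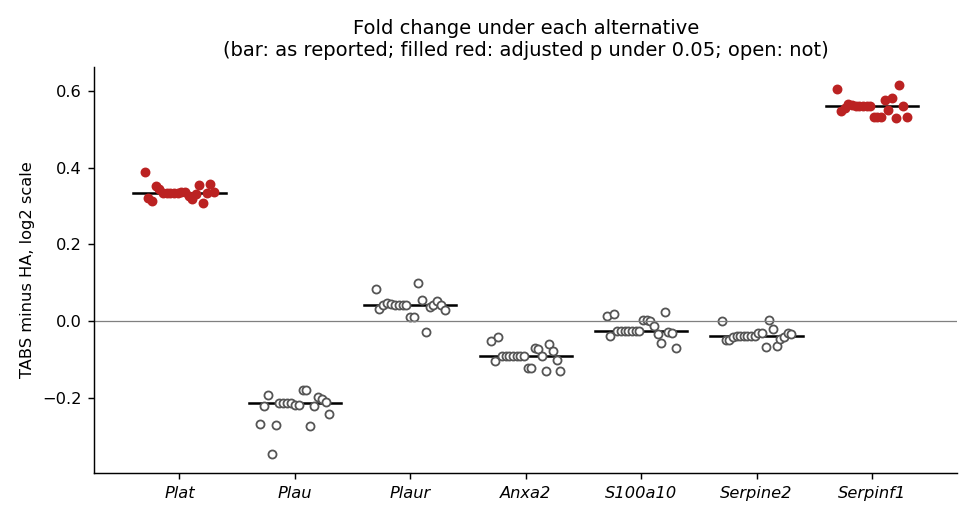
Fold change of the 7 members (vertical axis, TABS minus HA on the log2 scale) under each alternative (points), with the reported value as a bar, filled in red where the adjusted p is under 0.05. Every point of Plat and Serpinf1 is red, and no point of the other members is.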

How the data were processed

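The authors deposited 1 table of FPKM values per gene and library, with replicates not pooled. The build GRCm38 and the tools STAR, fastp and DESeq2 are named in the submitters' processing notes, with no role or version. Which program gave the FPKM values, from which annotation and with which strand setting, is not stated there. Columns were matched to samples by library names, which carry H for TABS and L for HA. Those letters do not spell the group names, and no gene checks them. Symbols came from GENCODE M21 (55154 of 55335 identifiers matched).

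Genes with at least 1 FPKM in at least 4 of 8 libraries were tested (11280) in R 4.3.3 by limma 3.58.1 from log2(FPKM + 1), variances following the expression level, without a block. The fit was tested on simulated data with the means and spreads of these libraries. It called 55% of 100 genes changed by 0.3 on the log2 scale and 85% of 100 changed by 0.6. It also called 5 unchanged genes. A gene that did not pass may therefore still differ. The simulation changed 200 of 11280 genes and drew the noise of each gene separately. These rates need not hold in the data, where 833 genes were called and fold changes went with GC content. The alternatives were other scalings, pseudocounts, filters, variance models, a replicate block, a lowess correction for GC content and length, and leaving out each library. Promoters came from the RefSeq table of GRCm38.p6, and protein sequences were not used here.

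The members and lists were chosen with earlier results of these data known. Named were all members, Plg, Serpinf2, each list's called genes and its 2 smallest adjusted p, and the 2 nearest profiles of each called member. Genes given only by fold change or called only under an alternative, those used beside the annexin pair, Itgav and S100a16 were named after their values were seen. A list gene of that rule is not reported here.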

Additional observations from a re-analysis of the deposited data

Results flagged for a closer look

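Over the members, list genes, markers and nearest profiles that were tested, 1 library stood apart from the other 3 by Dixon's criterion in 7 of 144 groups of 4 libraries, and chance gives about 1 in 20. Anxa5 was at 695 FPKM in HA 3 against 604 to 608 in the other HA libraries. Itgav was at 12.6 FPKM in HA 4 against 4.58 to 4.80. Igf2r was at 33.6 FPKM in TABS 4 against 34.8 to 35.0 in the other TABS libraries. Itgb5 was at 189.6 FPKM in TABS 1 against 182 to 183. Lrpap1 was at 39.9 FPKM in TABS 4 against 40.9 to 41.0. Ltbp1 was at 42.1 FPKM in HA 1 against 43.5 to 43.7. Serpinb6b was at 2.59 FPKM in HA 4 against 1.98 to 2.04. None of the 7 members had such a library.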

How the results depend on the processing

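Of 20 alternatives, all kept the calls on Plat and Serpinf1, and none brought a call on Anxa2, S100a10 or Serpine2, nor did the 19 that tested Plau and Plaur. Uncalled values near 0 changed sign: S100a10 after rescaling to TPM (0.015), with quantile normalization (0.019) and after the GC and length correction with or without the block (0.0019). With 1 library left out S100a10 ran from -0.069 to 0.023, Plaur from -0.028 to 0.10 and Serpine2 from -0.068 to 0.0024. The count of all genes called (833) fell to 542 (195 lower) with no filter, and 915 were higher after rescaling to TPM. With 1 library left out it ran from 415 to 718 (247 to 429 higher and 168 to 289 lower), and the list genes called lower from 2 to 4. No filter left 2 of these.

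Same-numbered libraries did not deviate together (r = 0.10, 0.05, -0.10 and -0.06), and only TABS 1 and HA 1 were nearest to their own number. The labels do not say whether a number marks a shared culture or day, and these values cannot decide it. With the replicate block 230 genes were called (136 higher and 94 lower), or 320 (166 and 154) with the GC and length correction as well, and 1 and 2 list genes were called lower. Plat (0.33, adjusted p = 0.0353) and Serpinf1 (0.56, adjusted p = 0.0186) passed with the block. Anxa5 and Mmp13 did not (adjusted p = 0.0589 for each), nor did Anxa3 (0.106), Pdgfd (0.134), Timp2 (0.0615) or Usp11 (0.0688), and with the correction and the block Plxdc1 (0.0526) and Timp2 (0.0522) did not. The cause was not tested. The depth behind low genes such as Plau is known only by inference, so no counting interval is given.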

Other observations

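A pair of list genes spread widely within both groups. Itgav, the integrin alpha v gene, measured 12.3, 5.49, 5.14 and 11.3 FPKM in TABS 1 to 4 and 4.62, 4.80, 4.58 and 12.6 in HA 1 to 4, so 3 libraries lay between 11.3 and 12.6 and the other 5 between 4.58 and 5.49. Its exons share 634 of 10744 bases with the antisense gene Gm13684. S100a16 measured 43.3, 39.6, 20.8 and 23.6 FPKM in TABS and 26.2, 22.3, 16.7 and 31.2 in HA. Both were noticed after the values were seen, and neither passed the test (limma adjusted p = 0.587 and 0.433).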
